A study of Mus musculus with 3 samples.

Results

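Endothelial cells are held together by adherens junctions and tight junctions, and the transcripts of 10 genes of these contacts are described here in cultured mouse lymphatic endothelium. The genes were listed by name: Cdh5 and Ctnnb1 of the adherens junction, the adhesion molecule Pecam1, the immunoglobulin-type junction proteins Esam, F11r, Jam2 and Jam3, and Cldn5, Ocln and Tjp1 of the tight junction. All probe sets that the platform annotation assigns to a single one of these genes were read, which gave 20 of the 45101 probe sets on the array and 10 of its 18194 genes. The array is a 1-colour Affymetrix-type array, on which a probe set reports the signal intensity of a stretch of a transcript.

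The samples were 3 cultures of immortalized lymphatic endothelial cells (imLECs) of mouse skin, at passage 13, 14 or 18. They were isolated by FACS from H-2Kb-tsA58 mice (ImmortoMice), in which an interferon-inducible promoter drives a temperature-sensitive SV40 large T antigen. Every culture was grown at 33 °C with interferon-gamma and then held for 3 days at 37 °C without it, a step by which the protocol lets the T antigen degrade. The labels name no untreated, primary or non-endothelial comparison group, no age of the animals, and do not say whether the cultures descend from a single isolate. The comparison this allows is among the passages, and since each passage is a single culture, passage and culture cannot be told apart.

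In an adherens junction, the extracellular part of VE-cadherin (Cdh5) binds VE-cadherin of the neighbouring cell, and its tail binds catenins that reach the actin cytoskeleton. In tight junctions, claudins form the strands that seal the cleft between cells, occludin and the junctional adhesion molecules (JAMs) lie beside them in the membrane, and ZO-1 (Tjp1) scaffolds them from inside. Lymphatic endothelium uses these same proteins, arranged as discontinuous buttons in initial lymphatics and as continuous zippers in collecting vessels. Transcript levels do not show where the proteins were in the cell.

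Values are log2 signal intensity of a gene's brightest probe set, and each SD is taken over the 3 cultures (n = 3). Since the values come without detection calls, 56 measured genes restricted to other tissues served as a background. Their 95th percentile on an array is its floor, at 5.20, 5.43 and 5.30 for passages 13, 14 and 18. Genes that exceed the floor in every culture are called detected, and a value below it only bounds the transcript from above. Of the 56 reference genes, 3 passed that call themselves. At passages 13, 14 and 18, Apoa2 read 7.43, 8.08 and 7.02, Prm1 6.16, 6.14 and 6.10, and Tnnt2 9.34, 9.19 and 9.65. A 95th percentile leaves a few of its own genes above it on each array. The count therefore does not measure how well the floor works. Intensities of different probe sets depend on their probes, so levels are compared between cultures and not between genes.

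The cultures carried endothelial transcripts, with 19 of 20 pan-endothelial and 8 of 13 measured lymphatic markers detected. By the same call 52.0% of all genes were detected, and the lymphatic share was not far above that. Lymphatic Prox1 read 6.20, 5.11 and 5.60 at passages 13, 14 and 18, with passage 14 under the floor, and Mmrn1 and Reln were below it throughout. The 8 detected lymphatic markers had a median log2 difference of -0.42 between passages 18 and 13. Of these 8, 5 were lower at passage 18, where 51.3% of all detected genes were lower. The hyaluronan receptor gene Lyve1 read 10.43, 11.52 and 7.35, and Flt4, which encodes VEGFR-3, read 10.99, 10.87 and 9.85, so both were lowest at passage 18. The brightest of the list, Pdpn (12.17, 10.92 and 11.86) and Thy1 (11.29, 10.47 and 10.75), were lowest at passage 14. The epithelial genes Cdh1, Epcam and Krt14 and the leukocyte gene Ptprc lay under the floor in every culture, while 4 of 14 measured leukocyte markers were detected (Cd53, Cd68, Coro1a and Lcp1). The RNA controls set passage 18 apart: its Gapdh 3'/5' intensity ratio was 19.4, against 8.59 and 7.10 at passages 13 and 14, and its Actb ratio was 1.42, against 1.18 and 1.20. Summed fibroblast marker intensity was also highest there, at 3148 against 1023 and 587 at passages 13 and 14. Of the 12 fibroblast markers, 4 were detected and 6 were below the floor in every culture. The detected collagen genes Col1a1 (8.04, 6.54 and 10.26), Col3a1 (7.63, 7.67 and 9.60) and Col6a1 (6.93, 5.74 and 9.11) were highest at passage 18. Fbln1, the other detected marker, was lowest there (7.91, 7.08 and 7.02). These values stand beside every comparison with passage 18 given here, and their part in it was not tested.

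Of the 10 junction genes, 7 were detected: Cdh5, Ctnnb1, Pecam1, Esam, F11r, Jam3 and Tjp1. Over the whole array 52.0% of genes were detected. The other 3, Cldn5, Jam2 and Ocln, were each below the floor in at least 1 culture. Of the 20 probe sets, 10 were above the floor on all 3 arrays, 3 on some of them and 7 on none. The matching share over all probe sets of the array was not counted, so these counts only describe the members.

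**Figure D1:**
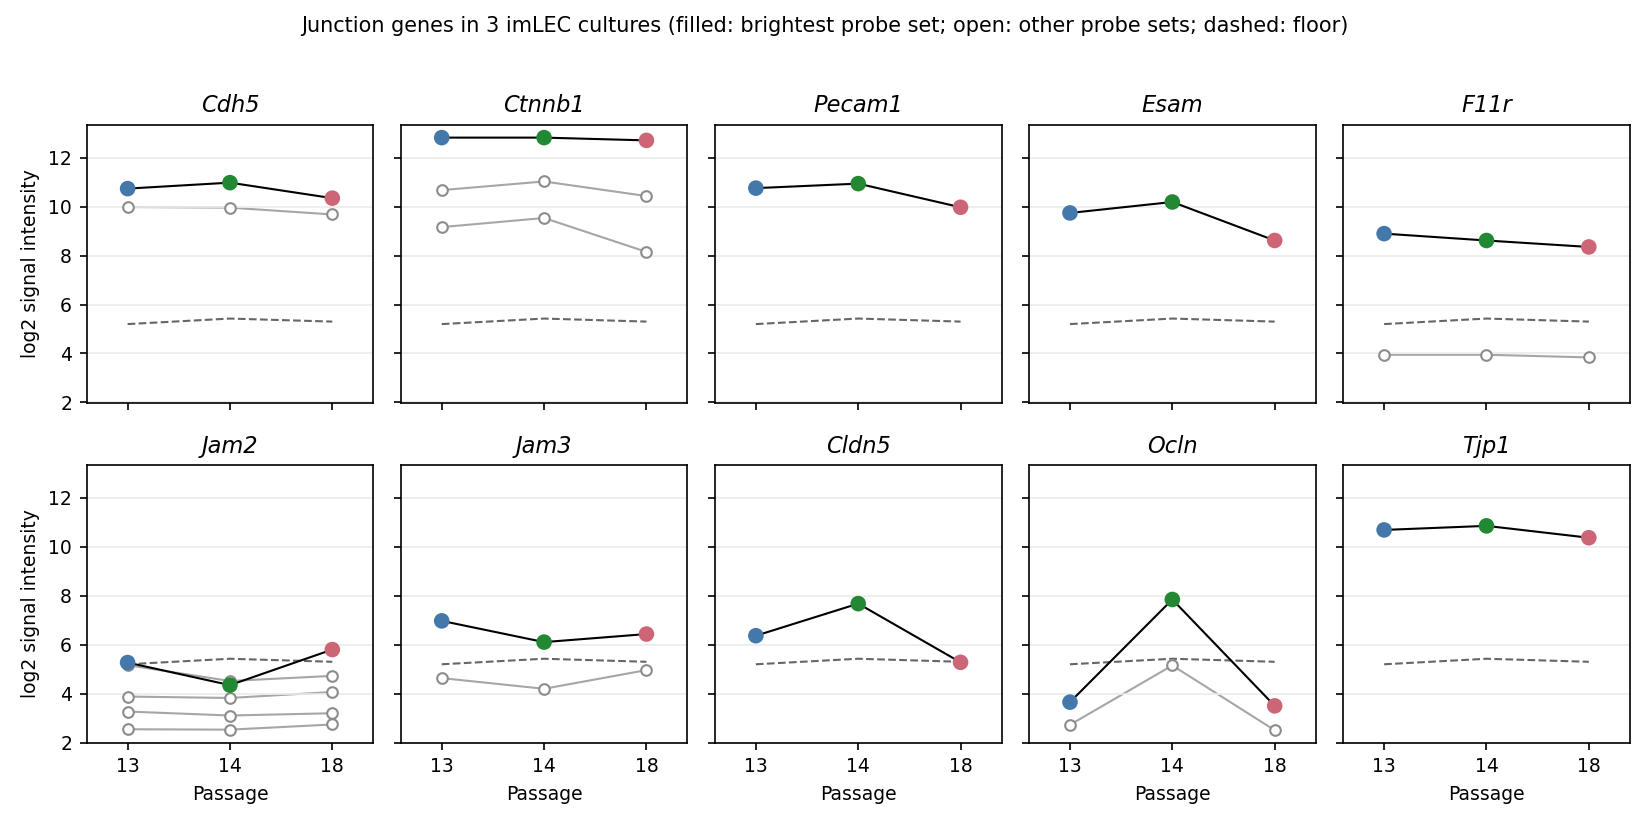
Log2 signal intensity (vertical axis) of every probe set of the 10 junction genes at passages 13, 14 and 18 (horizontal axis, evenly spaced), with 1 point per culture. Filled points are the brightest probe set, open points the others, and the dashed line the floor of each array. Ocln is above the floor at passage 14 alone, at 7.85, while the brightest probe sets of Cdh5, Ctnnb1, Pecam1, Esam, F11r and Tjp1 stay well above it.

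The adherens junction genes were detected in every culture. Cdh5, the cadherin of endothelial cells, read 10.74 at passage 13, 10.98 at passage 14 and 10.35 at passage 18 (10.69 ± 0.32, SD, n = 3). It was highest at passage 14 and lowest at passage 18, 1.31-fold lower than at 13 and 1.55-fold lower than at 14, and its SD was larger than that of 65.5% of detected genes. The second Cdh5 probe set read 9.98, 9.96 and 9.68, with the lowest value again at passage 18 and passages 13 and 14 nearly equal. In RNA of whole cultures, fewer cells with a transcript and less of it per cell cannot be told apart.

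Ctnnb1 encodes beta-catenin, which binds the cadherin tail and is also the transcriptional effector of Wnt signalling. Its brightest probe set had the same value at passages 13 and 14, 12.82, and 12.71 at passage 18 (12.78 ± 0.07, SD, n = 3), a spread that exceeds that of 6.80% of detected genes. Its other probe sets were less even. The next brightest read 10.67, 11.03 and 10.43. The dimmest read 9.16, 9.54 and 8.15, which is 2.02-fold lower at passage 18 than at 13. All 3 were lowest at passage 18, but they put the difference from passage 13 at 1.08-fold, 1.18-fold and 2.02-fold.

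Pecam1, an immunoglobulin-type molecule that binds itself across endothelial contacts, read 10.75, 10.94 and 9.97 at passages 13, 14 and 18 (10.56 ± 0.51, SD, n = 3). Passage 18 lay 1.72-fold below passage 13 and 1.95-fold below passage 14, whereas passages 13 and 14 differed 1.14-fold. It has a single probe set here.

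Among the JAM-type genes, Esam differed most between cultures. Esam, an adhesion molecule of endothelium and platelets, read 9.74, 10.19 and 8.62 at passages 13, 14 and 18 (9.52 ± 0.81, SD, n = 3). Passage 18 lay 2.18-fold below passage 13 and 2.97-fold below passage 14, and passage 14 lay 1.36-fold above passage 13. Its spread was larger than that of 95.3% of detected genes.

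F11r encodes JAM-A, which is found on endothelium, epithelium, platelets and leukocytes. It read 8.90, 8.62 and 8.35 (8.62 ± 0.27, SD, n = 3), highest at passage 13 and 1.46-fold lower at passage 18. Its second probe set was below the floor on all arrays. Jam3 encodes JAM-C, a partner of JAM-B, and read 6.97, 6.11 and 6.44 (6.51 ± 0.44, SD, n = 3), lowest at passage 14, where it was 1.82-fold below passage 13. Its second probe set was below the floor on all arrays. Jam3 was thus the 1 detected member that was not lowest at passage 18.

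Jam2, which encodes JAM-B, lay near the floor. By the brightest probe set it read 5.27, 4.35 and 5.80, which is just over the floor at passages 13 and 18 and under it at passage 14. Passage 18 was at least 1.30-fold higher than passage 14. The other 4 Jam2 probe sets were below the floor on all 3 arrays, between 2.53 and 5.16.

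The tight junction genes included a scaffold gene with a middling spread and the members that varied most. Tjp1 (ZO-1), the scaffold that ties claudins and JAMs to actin, read 10.69, 10.85 and 10.37 (10.64 ± 0.25, SD, n = 3), with 1.40-fold between passages 14 and 18 and an SD above that of 51.3% of detected genes. Cldn5, the main claudin of endothelial barriers, read 6.37, 7.68 and 5.28 at passages 13, 14 and 18 (6.44 ± 1.20, SD, n = 3). Cldn5 had a 2.48-fold higher value at passage 14 than at passage 13. Its passage 18 value lay 0.02 below the floor, so passage 14 was at least 5.19-fold and passage 13 at least 2.09-fold higher than passage 18.

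Ocln encodes occludin, a membrane protein of tight junctions that is abundant in epithelium and in brain endothelium. It read 3.65 at passage 13, 7.85 at passage 14 and 3.50 at passage 18, in intensity 12.6, 230.4 and 11.3. Only the passage 14 culture was above the floor, and its signal was at least 6.26-fold above passage 13 and at least 5.84-fold above passage 18. The second Ocln probe set read 2.73, 5.15 and 2.51, under the floor on all 3 arrays. Over the array, 0.786% of genes (143 of 18194) were above the floor at passage 14 alone, and Ocln stood 5th among them by the smaller of its bounds, after Cxcr4, Mfng, Foxf1 and Pf4. This rank was looked up after the Ocln values had been seen.

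None of the measured epithelial markers was above the floor at passage 14 alone, as Ocln was. Of 14 measured keratinocyte and epithelial genes, 4 were detected (Krt5, Krt10, Krt18 and Cdh3) and 7 were below the floor in every culture. Intensity summed over the whole list was 691, 561 and 860 at passages 13, 14 and 18. The brightest were Krt18 (7.85, 7.72 and 8.55) and Krt10 (7.05, 6.35 and 6.86), so the sum mostly follows these genes. Cdh1 read 3.16, 2.90 and 3.02 and Epcam 3.88, 3.89 and 3.75. Of the 7 measured platelet markers, Itgb3 alone was detected (11.76, 11.07 and 10.77). Pf4 was above the floor at passage 14 alone (7.87, against 5.16 and 5.15), while Itga2b read 5.58, 5.35 and 5.12 and Gp9 5.69, 5.12 and 5.27. The leukocyte list summed to 767, 797 and 446, and its members differed in direction. Cd68 (6.99, 7.93 and 5.86) and Lcp1 (6.91, 7.85 and 6.72) were highest at passage 14, as Ocln was, whereas Cd53 (7.93, 6.92 and 6.01) and Coro1a (6.53, 5.62 and 5.93) were highest at passage 13. Their part in the Ocln values was not tested.

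**Figure D2:**
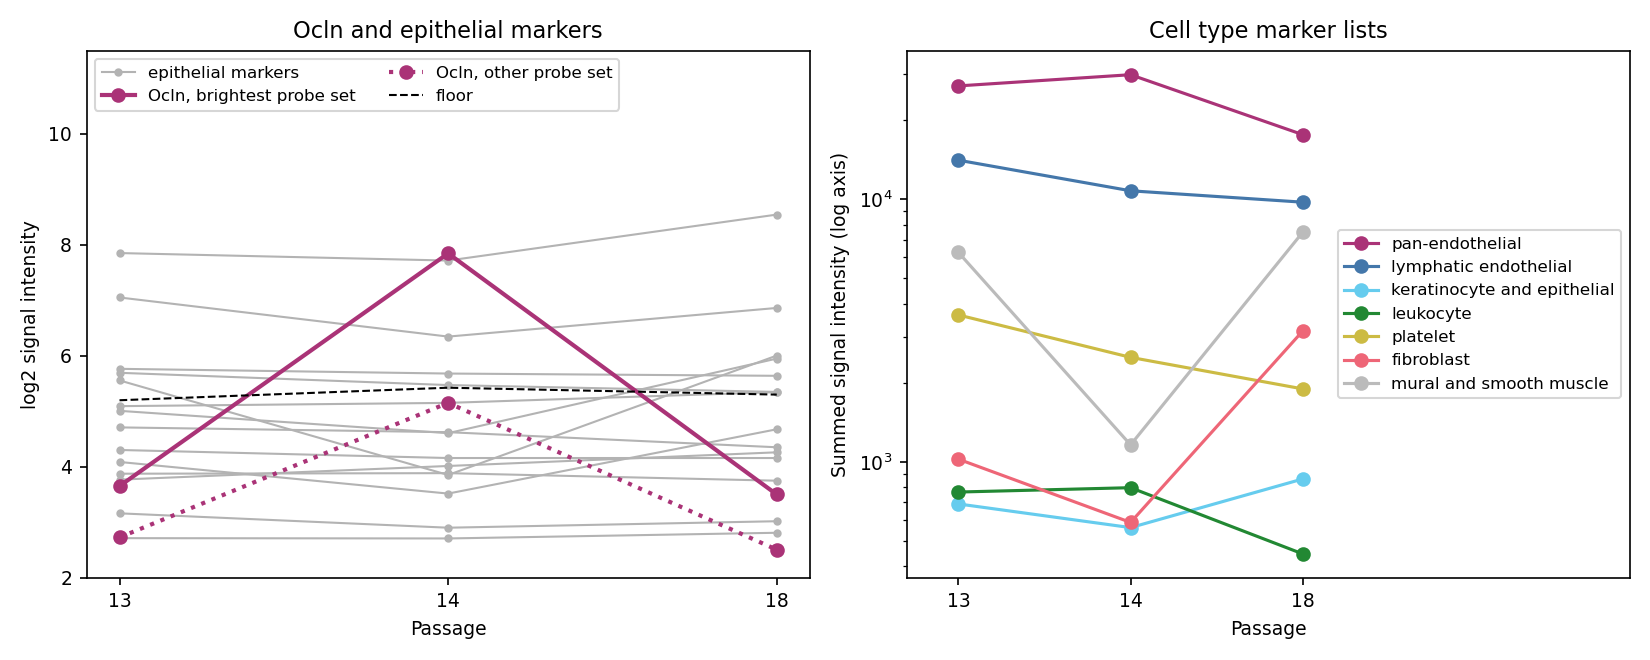
Left, log2 signal intensity of both Ocln probe sets and of the 14 epithelial markers at passages 13, 14 and 18, with the floor dashed. Right, signal intensity summed over each marker list on a log axis. The epithelial sum is lowest at passage 14 (561), and the fibroblast sum is highest at passage 18 (3148).

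The sequences before the starts of Cldn5 and Ocln are shown because these are the members that differed most between cultures. They are the 250 bases before the RefSeq start (GRCm38.p6), read 5′ to 3′ on the strand of the gene, chr16:18776597-18776846 (+) for Cldn5 and chr13:100552719-100552968 (-) for the more upstream of the 2 listed Ocln starts. Capitals mark the GC box bound by Sp-type factors, GGGCGG or its reverse complement CCGCCC.
Cldn5: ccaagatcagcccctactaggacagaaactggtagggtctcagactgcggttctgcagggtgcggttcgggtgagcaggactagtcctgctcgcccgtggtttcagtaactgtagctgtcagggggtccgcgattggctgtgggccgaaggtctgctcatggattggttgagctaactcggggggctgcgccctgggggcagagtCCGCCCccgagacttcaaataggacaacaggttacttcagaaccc
Ocln: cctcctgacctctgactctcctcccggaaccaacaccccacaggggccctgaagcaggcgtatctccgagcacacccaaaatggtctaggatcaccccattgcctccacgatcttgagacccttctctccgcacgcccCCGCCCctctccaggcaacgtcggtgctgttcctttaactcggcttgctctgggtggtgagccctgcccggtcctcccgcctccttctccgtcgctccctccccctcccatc
Each of these windows held 1 GC box. At least 1 was in 32.7% of the 32851 windows of this length in the table, and in all 7 windows of the junction genes described next.

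Of the 10 genes, 5 had entries there, with 7 windows in all (Ctnnb1, F11r, Cldn5, Ocln and Tjp1). The letters AGGAAG or CGGAAG, which hold the ETS core GGAA of endothelial transcription factors, were searched on both strands. They occurred in 1 of the 7, that of Tjp1, and in 39.2% of all windows. GGAA with other flanking letters was not searched, and the Ocln window shown above holds it. The search therefore does not show which windows lack an ETS core. The E-box CACCTG, or CAGGTG on the other strand, which Snail and Zeb repressors bind at junction genes, was in 17.2% of all windows, in that of F11r, and at 2 places before the downstream Ocln start. Those places are shown with their flanks and with the E-box in capitals, at chr13:100552697-100552720 (-) and chr13:100552552-100552575 (-).
Ocln upper site: tcggagtttCAGGTGaatgggtca
Ocln lower site: ggggctcggCAGGTGggtcccagc
A match describes the letters only, and no binding was measured in these cells.

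Set side by side, most junction genes were lowest at passage 18. All 7 detected members were lower there than at passage 13, where 51.3% of all detected genes were lower. Their median log2 difference was -0.54, and that of all detected genes was -0.01. Of the 7, Esam alone was at least 2-fold lower, where 2.19% of all detected genes were 2-fold lower and 2.28% higher. Between passages 14 and 18 it was again Esam alone, where 5.34% of detected genes were 2-fold lower and 6.52% higher. In that pair 6 of 7 members were lower (background 49.3%), with a median of -0.48. Between passages 13 and 14 none of the 7 differed 2-fold, where the background was 1.98% for higher and 3.07% for lower. In that pair 2 of 7 members were lower (background 50.7%), and the median difference was 0.17. Cldn5, Jam2 and Ocln do not enter these counts, since each was below the floor on some array.

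Other endothelial markers were lower at passage 18 as well. Of the 20 pan-endothelial markers, 4 are junction genes (Cdh5, Pecam1, Esam and Cldn5), and the other 16 were all detected and all lower at passage 18 than at 13 and than at 14. Their median log2 difference was -0.76 from passage 13 and -1.10 from passage 14, and 4 and 8 of them were at least 2-fold lower. The transcription factor gene Sox18 read 9.23, 10.27 and 7.87 at passages 13, 14 and 18, and Egfl7, a secreted endothelial protein, read 9.89, 9.96 and 8.67. Between passages 13 and 14 the median of the 16 was 0.15, with 5 lower. The 15 measured housekeeping genes had a median of -0.06 between passages 18 and 13. Among markers of other cells, mural and smooth muscle intensity summed to 6270, 1160 and 7485, lowest at passage 14, where Jam3 was lowest. Of these 12 markers, 3 were detected: Acta2 (10.52, 8.27 and 12.37), Tagln (12.15, 9.27 and 10.78) and Pdgfrb (6.28, 6.04 and 7.69). All 3 were lowest at passage 14. At passage 18 Tagln was lower than at 13, while Acta2 and Pdgfrb were higher. Their part in the Jam3 values was not tested.

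**Figure D3:**
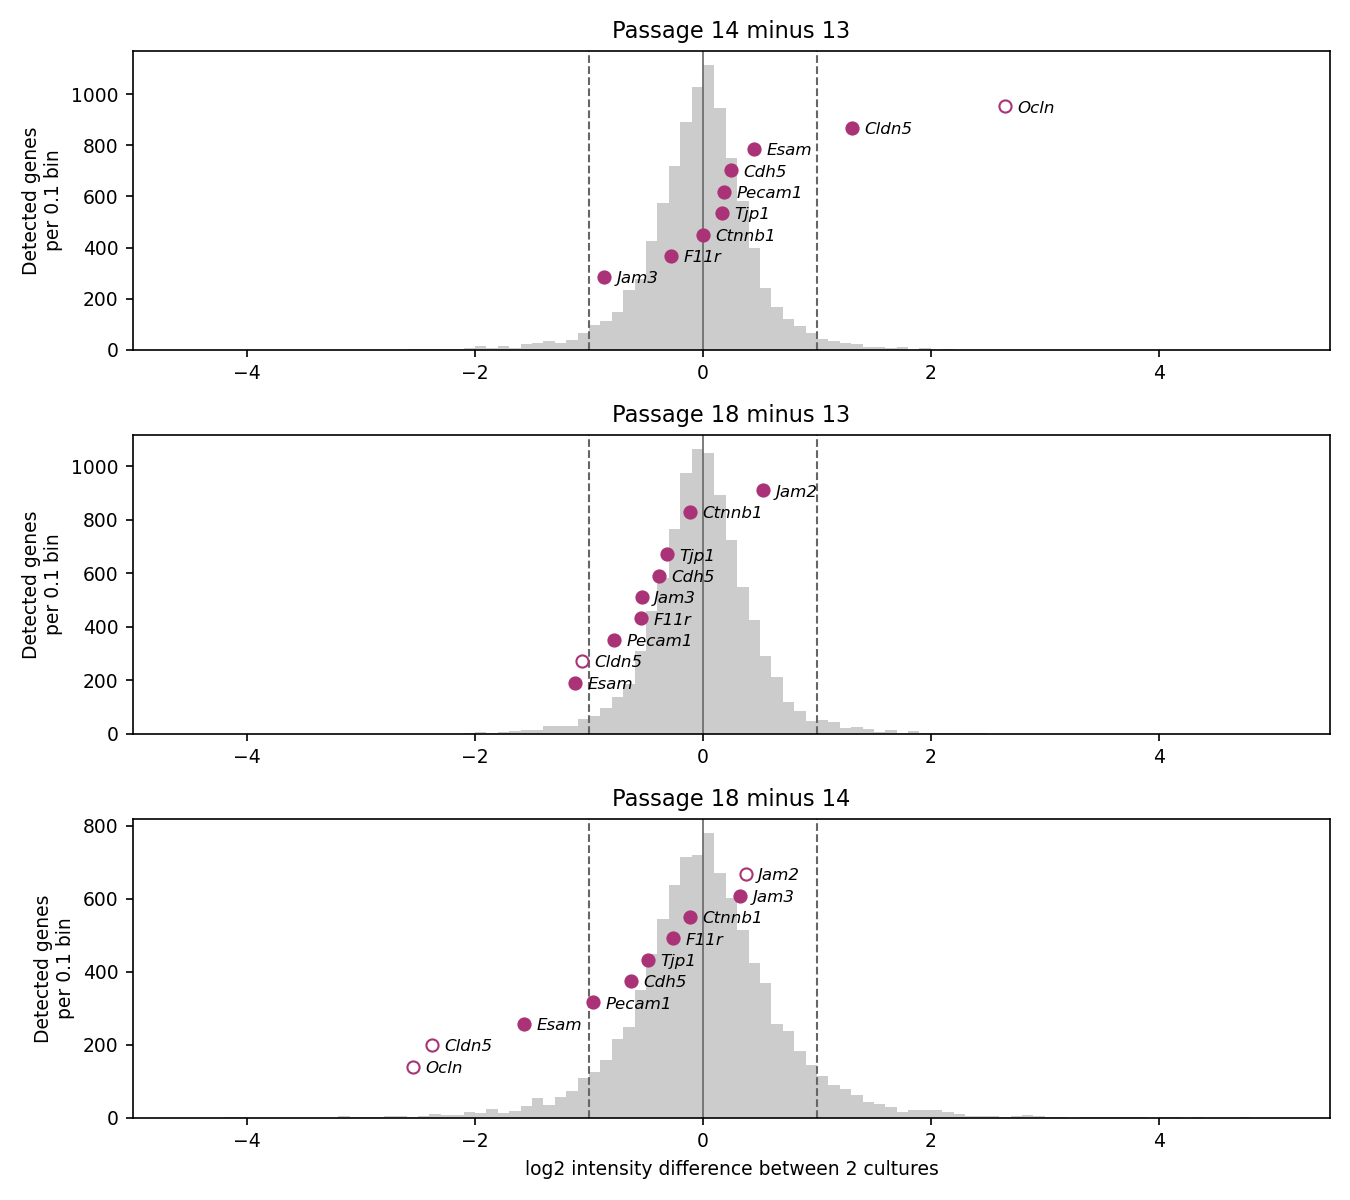
Log2 intensity differences between pairs of cultures (horizontal axis) for all 9467 detected genes (grey histogram, genes per bin of 0.1) and for the junction genes, placed at arbitrary heights. Filled points are members above the floor on both arrays, open points are bounds set by the floor where 1 value was below it, members without such a bound are not drawn, and dashed lines mark 2-fold. Ocln (at least 6.26-fold) and Cldn5 (1.31 in log2) lie farthest to the right between passages 13 and 14, and all 7 detected members lie left of 0 between passages 13 and 18.

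By the brightest probe set, Cdh5, Pecam1, Esam, Cldn5 and Tjp1 were highest at passage 14, intermediate at 13 and lowest at 18. This was 5 of the 10 members and 4 of the 7 detected, while 25.7% of all detected genes had that order. The count depends on the probe set chosen. The second Cdh5 probe set was highest at passage 13 (9.98, 9.96 and 9.68), and the dimmer Ctnnb1 probe sets had the order that its brightest lacked. Ocln was highest at passage 14 too, but its other values were both under the floor and have no order. With Ctnnb1 and F11r, 7 of 10 members were lowest at passage 18 (6 of 7 detected), against 38.3% of detected genes. The median SD over the 7 detected members was 0.32, against 0.24 over all detected genes. The 3 cultures give no measure of how often a culture of the same passage would show this order.

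No junction gene passed a test of the trend with passage number. In limma, with p-values adjusted by the Benjamini-Hochberg method over 10087 genes, 0 genes passed at an adjusted p under 0.05 (0%), and 358 genes (3.55%) had an unadjusted p below that value. All 8 tested members had negative slopes, with a median of -0.10 log2 units per passage, where 50.8% of tested genes had negative slopes. The largest were those of Cldn5 (-0.33 ± 0.18, SE), Esam (-0.27 ± 0.09) and Pecam1 (-0.18 ± 0.06). Esam and Pecam1 had unadjusted limma p-values of 0.0449 and 0.0453 and adjusted values of 0.899. Without the passage 18 culture, the slopes of Cdh5, Pecam1, Esam, Cldn5 and Tjp1 were positive. Such a slope is only the difference between the remaining cultures, so its sign repeats the order of their values given above. The negative direction of these 5 slopes therefore rests on the passage 18 culture. That culture had the Gapdh ratio of 19.4, whose part in these slopes was not tested.

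Other genes of the junction were read from lists of partners, of which 58 of 92 measured genes were detected. None of them passed the trend test (limma, 0 genes). Values are given for up to 4 of the brightest detected genes of each list and for those that differed at least 2-fold between passages 13 and 18.

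Of the catenins and other cadherin partners, 13 of 15 were detected, with a median difference of 0.12 between passages 18 and 13. Ctnna1, alpha-catenin, which joins the cadherin complex to actin, read 12.25, 12.09 and 12.36 at passages 13, 14 and 18. Ctnnd1 (p120-catenin), which keeps cadherins at the membrane, read 10.28, 10.18 and 10.81, and Vcl (vinculin) 10.23, 10.28 and 10.82. Ptpn11, which encodes the phosphatase SHP2, read 10.66, 10.49 and 10.73. By their brightest probe sets, these 4 were each highest at passage 18, where Cdh5 was lowest. The log2 difference from passage 13 was 0.12 for Ctnna1, 0.53 for Ctnnd1, 0.58 for Vcl and 0.07 for Ptpn11. Its median size over all detected genes was 0.245. The share of all detected genes that were highest at passage 18 was not counted. The phosphatase gene Ptprj read 7.45, 6.54 and 8.51, 2.10-fold higher at passage 18 than at 13. Its other probe set above the floor throughout was 1.11-fold higher.

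Of the nectins and afadin, which form a parallel adhesion system at adherens junctions, 5 of 7 measured genes were detected. Nectin2 read 9.98, 9.57 and 8.46, 2.86-fold lower at passage 18 than at 13, and its other probe set was 1.58-fold lower. Pvr, a nectin-like adhesion molecule, read 9.21, 8.13 and 7.28, 3.80-fold lower. All 3 of its probe sets above the floor throughout were lower, but the others were so by 3.97-fold and 1.30-fold. The probe set with the smallest difference was lowest at passage 14 (7.09, 6.15 and 6.72). Nectin3 read 11.05, 10.16 and 11.21 and Afdn (afadin) 8.90, 8.63 and 8.95. Their limma adjusted p-values all exceeded the threshold, although Nectin2 and Pvr had the largest 13 to 18 differences among the detected genes of the partner lists.

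Of 19 other claudins measured, Cldn12 alone was detected and 16 were below the floor on all 3 arrays. Cldn12 read 11.81, 11.27 and 12.16 by its brightest probe set and was highest at passage 18, while its other probe set was lowest there (7.84, 7.96 and 7.63). Cldn1, a claudin of skin epithelium, exceeded the floor at passage 18 alone (4.17, 4.66 and 6.23), as did 1.26% of all genes, and Cldn3 was just above it at passages 13 and 14 (5.39, 5.77 and 5.24). Cldn5 and Cldn1 were therefore on opposite sides of the floor at passages 14 and 18.

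Of the tight junction plaque, tricellular and polarity genes, 13 of 23 were detected, with a median difference of -0.01 between passages 18 and 13. Cgnl1 (paracingulin), a plaque protein of both junction types, read 10.04, 9.60 and 8.81, 2.35-fold lower at passage 18 than at 13, and all 4 of its probe sets above the floor throughout were lower. The brightest was Ybx3, a Y-box protein that binds ZO-1, which was highest at passage 14 and lowest at 18 (11.98, 12.25 and 11.59). The polarity genes Prkci (10.54, 10.02 and 11.02) and Pard6g (10.18, 9.84 and 10.52) were highest at passage 18. Amot, angiomotin, was lowest at passage 14 (10.45, 8.52 and 10.64). Marveld2, which encodes tricellulin, a relative of occludin, was below the floor on all 3 arrays.

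Rap1 signalling, which tightens VE-cadherin junctions, and the CCM proteins that act with it were detected in 14 of 16 measured genes. Rap1b read 11.89 in all 3 cultures, and Rap1a read 10.25, 10.33 and 10.41. Arhgap29, a partner of Rap1 effectors, read 11.72, 11.68 and 11.87, and Rapgef3, which encodes the cAMP-activated exchange factor EPAC1, read 10.55, 10.28 and 10.72. The exchange factor gene Rapgef1 read 10.06, 10.29 and 8.99, 2.10-fold lower at passage 18 than at 13, and Radil, a Rap1 effector, was 2.30-fold higher (5.87, 6.11 and 7.07). The endothelial Rap1 effector Rasip1 read 6.21, 7.21 and 4.92 and so dropped under the floor at passage 18. Cldn5 did the same, as did 1.01% of all genes.

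Of 12 other molecules at endothelial contacts, all 12 were detected, with a median difference of -0.34 between passages 18 and 13. Podxl, a sialomucin of the endothelial surface, read 8.96, 9.86 and 7.73, 2.35-fold lower at passage 18 than at 13. Alcam, an adhesion molecule of the immunoglobulin family, was 2.01-fold higher (10.28, 9.95 and 11.29), with all 4 of its probe sets above the floor throughout higher. Emcn (endomucin) read 13.16, 12.82 and 12.74, the immunoglobulin-type protein gene Bsg 11.66, 11.56 and 11.64, and Cd47 11.18, 11.78 and 11.28. The list median of -0.34 was the lowest of the partner lists, and the next lowest was -0.01.

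**Figure D4:**
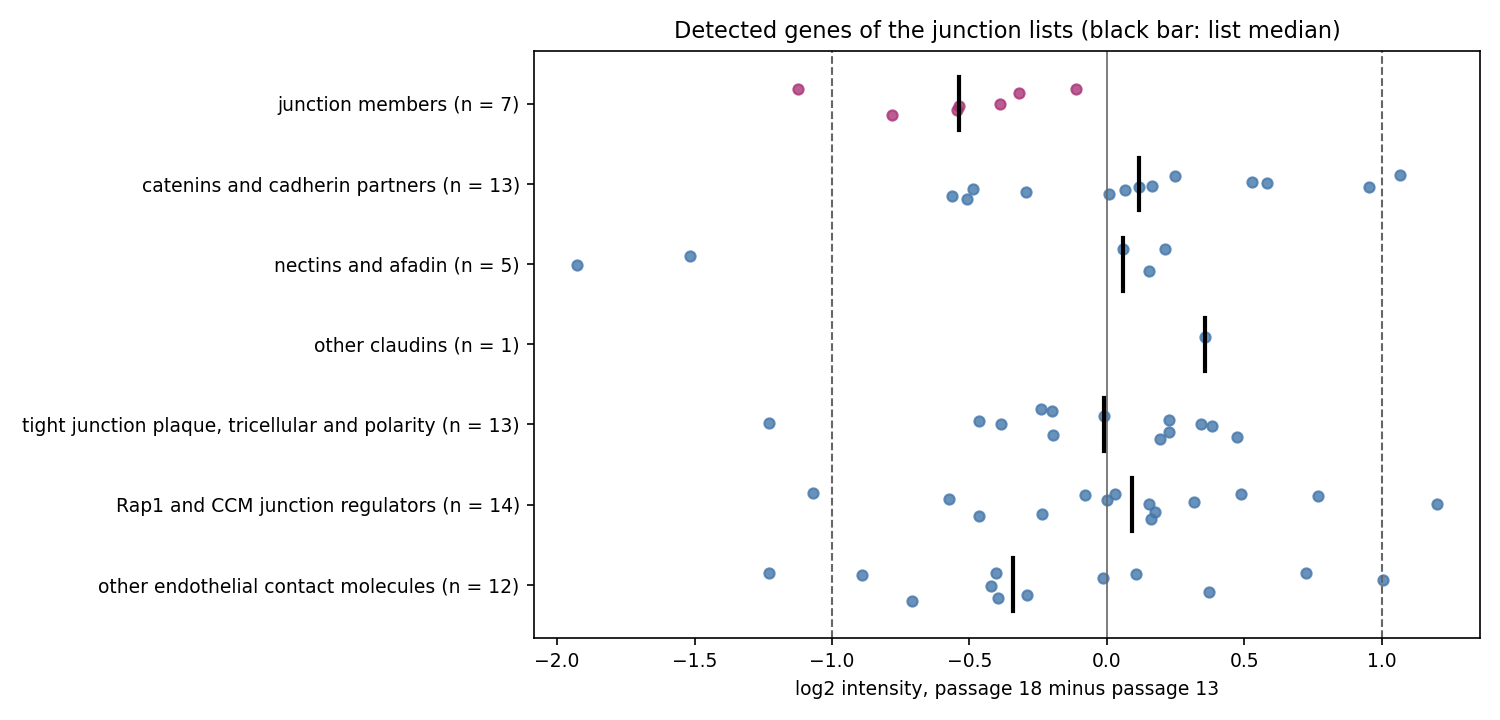
Log2 intensity at passage 18 minus passage 13 (horizontal axis) for each detected gene of the junction members (7 genes) and of the partner lists, 1 point per gene. Black bars are list medians and dashed lines mark 2-fold. The members' median is -0.54, that of other endothelial contact molecules -0.34, and the remaining list medians lie between -0.01 and 0.36. The value of 0.36 is that of Cldn12 alone, the only detected gene of the other claudins. The next highest median is 0.12, for the catenins and cadherin partners.

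The genes whose passage pattern was nearest to a member were found by the distance between log2 values after subtracting each gene's mean, over the 3 arrays and 9466 other detected genes. The nearest to Cdh5 were Cd99l2, Ubr7, Mrpl18, Yae1d1 and Lamtor4, and 1322 genes lay within a distance of 0.25. Cd99l2, an adhesion molecule of leukocyte passage through endothelium, read 8.75, 8.99 and 8.35. The nearest to Pecam1 were Adgra2, S1pr1, Ndufaf5, Gnai1 and Kpna3, with 342 genes within 0.25. With 3 points, many genes share a pattern, and nearness here is a description.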

How the data were processed

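Per the labels' protocols, all RNA was extracted together and went through a single linear isothermal amplification, and the single-stranded cDNA was labelled with biotin. The deposited table holds a linear signal intensity per probe set and array. The submitters' processing notes name MAS5, with no role or version. How background and scale were handled is not given in the sources used here. Median intensities were 25.7, 26.0 and 26.3 at passages 13, 14 and 18, so the deposited intensity values were not normalized again.

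Symbols were updated through Entrez identifiers to RefSeq (GRCm38.p6). Probe sets annotated to several genes (932) were not used. Intensities were taken to log2, and the probe set of highest mean stood for its gene. The passage trend used lmFit and eBayes (trend = TRUE) of limma 3.58.1 under R 4.3.3 for the 10087 genes with a mean above the mean floor, with 1 residual degree of freedom per gene. The script was tested on simulated data with a common spread and with slopes steeper than those of the tested members. That run does not show whether slopes like those of the members would be found. The trend p-values test for a slope with passage number. The slope is judged against the departure from a straight line over 3 cultures, with information on the variance shared across genes. No passage was replicated, so the p-values do not measure the spread among cultures of the same passage. Precision is limited by the number of arrays.

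The members and lists were chosen with earlier results of these data known. Named partners are the 4 brightest detected genes of each list and the detected genes past 2-fold between passages 13 and 18. One partner list is not reported here. A few further partners (Cldn1, Cldn3, Rasip1 and Marveld2) and markers (Lyve1, Flt4, Cd68, Coro1a, Pf4, Itga2b, Gp9, Sox18 and Egfl7) were chosen after their values were seen. Alternatives were another floor, the median of probe sets, leaving out shared probe sets, quantile normalization, median centring, 16 added before log2, no filter, passage 18 against the mean of the others, and leaving out each culture.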

Additional observations from a re-analysis of the deposited data

How the results depend on the processing

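The count of detected members was between 6 and 8 under every alternative run, with 7 to 8 when a culture was left out. Cldn5, 0.02 below its floor at passage 18, passed with the floor at the 90th percentile, with the median of probe sets and without shared probe sets, and Jam3 was lost with the floor at the 99th percentile. With Cldn5 counted, under the median of probe sets and likewise without shared probe sets, the detected members that differed 2-fold numbered 1 for passage 14 against 13, 2 for 18 against 13 and 2 for 18 against 14. Quantile normalization, median centring and 16 added before log2 left these counts as reported. The trend test called 0 genes under each of its 7 alternatives. With the median of probe sets the slope of Jam3 was 0.024. Leaving out a culture moved the slopes, which then have no test, between -0.16 and 0.24 for Cdh5, -0.24 and 0.18 for Pecam1, -0.39 and 0.45 for Esam, -0.87 and 0.082 for Jam3, -0.60 and 1.31 for Cldn5, and -0.12 and 0.17 for Tjp1. The positive value came without passage 18, except for Jam3, where it came without passage 13. The slopes of Ctnnb1 and F11r were never positive. The median SD of the 10 members was 0.48, and 0.26 to 0.57 with a culture left out. Signal near the floor limits what can be said of Jam2, of Cldn5 at passage 18 and of Ocln at passages 13 and 18.

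No paired analysis was possible because there is a single group of cultures.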
